A study of Mus musculus with 5 samples.

Results

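The regions described here are 6358 short stretches of accessible chromatin that were listed in SOX13lo γδ thymocytes and in double-positive (DP) thymocytes, and in none of the other 3 libraries of the study. The assay was ATAC-seq. A transposase inserts adapters into DNA that nucleosomes leave open, and the tagged fragments are sequenced. Each library gave 1 deposited list of peaks, on the mm9 build. Peaks of the 5 lists that overlapped by at least 1 bp were merged into regions, and a region was held by a library when it contained one of its peaks. The members are the autosomal regions held by SOX13lo and DP alone. They were 4.15% of the 153269 autosomal regions (157434 regions on all chromosomes). They were chosen by the presence and absence of peaks in the 5 lists, so their number describes these lists and was not tested.

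All animals were of the C57BL/6 strain. The 4 γδ libraries came from TCRbeta knockout mice with 1 Sox13 allele carrying the CFP reporter (TCRbeta KO, Sox13 ECFP KI/+). Their CD24+ γδ T thymocytes were sorted for high CFP (SOX13hi) or low to absent CFP (SOX13lo). The transgenic SOX13hi and SOX13lo libraries came from the same genotype with a Sox13 transgene (Sox13tg+), whose promoter the labels do not state. DP thymocytes came from wild-type mice, which carry no reporter and an intact Tcrb locus. Cell type and genotype therefore cannot be told apart between SOX13lo and DP. The animals' ages are not stated in the labels. Each group is 1 library, so no difference below has a replicate check and no p-value is given.

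DP thymocytes express both CD4 and CD8, belong to the αβ lineage, and rearrange the gene of the TCR α chain at this stage. γδ T cells leave the shared path of thymocyte development before it, when their γ and δ chain genes have been rearranged. SOX13 is an HMG-box transcription factor that marks a part of the immature γδ thymocytes. Accessible sites include promoters, enhancers and sites of chromatin looping, and enhancers differ more between cell types than promoters do.

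The lists differed in length. SOX13lo had the longest γδ list, with 67482 peaks, against 54435 in SOX13hi, 63932 in transgenic SOX13hi and 33155 in transgenic SOX13lo. DP had 113877 peaks. Read depth is unknown, and each peak carries the authors' score, a whole number whose meaning is not stated, so scores were ranked within a list and not compared between lists. Every line of the SOX13lo list bears a name that reads SOX13hi. The sample label was followed, and each result on SOX13lo rests on that label. The labels give transgenic SOX13hi and DP the same index sequence. Cell type markers, genes and the DNA sequence under the regions were not analysed here, because the tables at hand are on another build.

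SOX13lo shared more regions with DP alone than any other γδ library did. Against the 6358 members, 2143 regions (1.4% of the autosomal regions) were held by SOX13hi and DP alone, 4205 (2.74%) by transgenic SOX13hi and DP alone, and 757 (0.494%) by transgenic SOX13lo and DP alone. The members made up 11.1% of the autosomal regions of SOX13lo and 5.93% of those of DP. The same class took 4.998% of the SOX13hi, 8.16% of the transgenic SOX13hi and 3.15% of the transgenic SOX13lo regions. Only DP alone (61912 regions), SOX13lo alone (14965), all 5 libraries (14495), transgenic SOX13hi alone (11256), SOX13hi alone (7121) and all libraries but transgenic SOX13lo (6970) were more frequent among the 31 patterns found.

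Since the counts move with the lengths of the lists, the share held by DP was also taken among the regions that exactly 1 γδ library held. Of the 21323 such regions of SOX13lo, 29.8% were also in DP (exact Clopper-Pearson 95% interval 29.2 to 30.4). The share was 27.2% in transgenic SOX13hi (26.5 to 27.9 of 15461), 23.1% in SOX13hi (22.3 to 24.0 of 9264) and 21.1% in transgenic SOX13lo (19.8 to 22.5 of 3590). The order of these shares was also the order of the list lengths. These intervals cover counting error only and treat regions as independent.

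With the 33155 highest-scoring peaks of each list, 1480 regions were held by SOX13lo and DP alone, 958 by transgenic SOX13hi and DP alone, 750 by SOX13hi and DP alone and 749 by transgenic SOX13lo and DP alone. The shares held by DP were then 22.9% (21.9 to 23.9) in SOX13lo, 20.2% (19.03 to 21.3) in transgenic SOX13hi, 16.6% (15.5 to 17.7) in SOX13hi and 12.8% (12.0 to 13.7) in transgenic SOX13lo. SOX13lo thus stayed first, with 1.97 times the number of SOX13hi in place of 2.97 times. The cut fell at a score of 15 in SOX13lo, 12 in transgenic SOX13hi, 10 in SOX13hi and 23 in DP. Transgenic SOX13lo kept its whole list, down to 8. The longer γδ lists were thus cut at higher ranks, and the share held by DP varied with rank within a list (below). Equal length therefore does not make the lists alike. When only the γδ lists were shortened and DP was left in full, a setting added after the data were seen, the shares were 51.6%, 46.8%, 40.3% and 33.3% in the same order. The regions themselves mostly changed: 541 of the 6358 members (8.51%) had both of their peaks among the 33155, and 59.7% had neither.

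**Figure D1:**
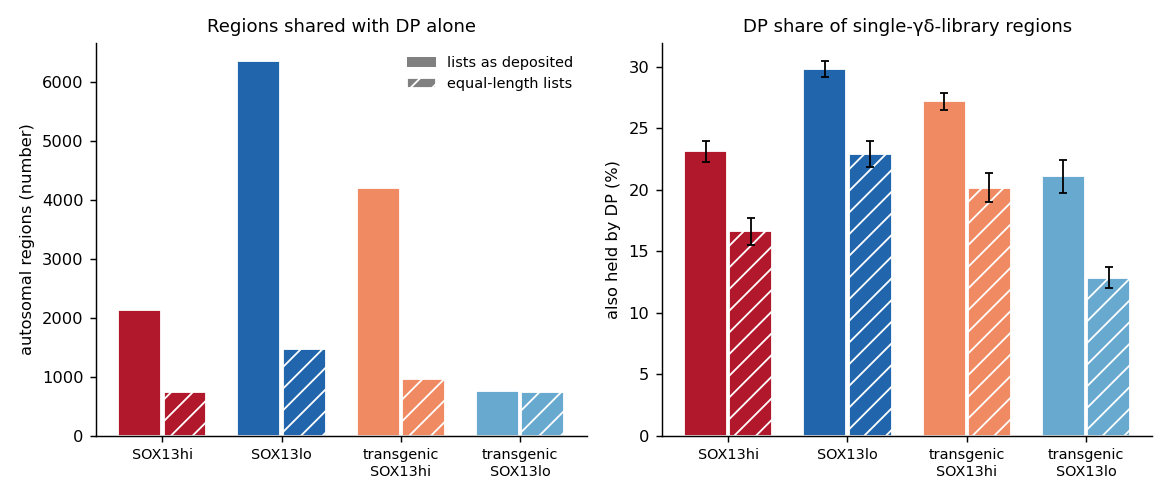
Left: number of autosomal regions that each γδ library shares with DP alone. Right: percentage held by DP among the regions that exactly 1 γδ library holds, with exact Clopper-Pearson 95% intervals. Plain bars are the lists as deposited, and hatched bars use the 33155 highest-scoring peaks of each list. SOX13lo is the highest in both panels, and its number drops from 6358 to 1480 with lists of equal length.

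Most members were low in the SOX13lo list and near the middle of the DP list. In SOX13lo the highest-scoring peak of a member had a median score of 11 (quartiles 9 and 14), against 15 for all autosomal SOX13lo regions and 69 for regions held by all 5 libraries. Its median percentile rank in the list was 34.6. In DP the median score was 14 (8 and 23), against 11 for all DP regions and 118 for regions held by all 5, and the median percentile rank was 57.8. The lowest score of the SOX13lo list, 8, was that of 22.6% of members, against 15.5% of all autosomal SOX13lo regions. The lowest score of the DP list, 5, was that of 9.20% of members, against 18.2% of all DP regions. Members above the 75th percentile in both lists numbered 41 (0.645%), a further 1039 were above it in DP alone, and 93 in SOX13lo alone.

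Members outranked the regions that only their own list held. SOX13lo regions found in no other list had a median score of 9, and DP regions found in no other list a median of 7. The DP rank was not particular to members. Regions of DP with SOX13hi alone had a DP median of 13, and those with transgenic SOX13hi or transgenic SOX13lo alone 14. Classes were set by overlap, which wider peaks can meet more readily. The median width of the DP peak was 29 bp in DP alone and 88 bp in members. Members ranked lower than regions held by a further γδ library as well. With SOX13hi added, the medians were 14 in SOX13lo and 21 in DP (2237 regions). With transgenic SOX13hi added they were 13 and 21 (3269 regions). Across members, SOX13lo and DP scores were nearly unrelated (Spearman's rho 0.12 over 6358 regions of the same 2 libraries). Over the 14495 regions of all 5 libraries rho was 0.72. Those regions spread more widely in SOX13lo score, with quartiles of 36 and 135, against 9 and 14 for members, of which many were tied. The 2 values of rho are therefore not directly comparable.

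The share held by DP rose with the score in SOX13lo and then fell. It was 23.3% (22.5 to 24.2) among single-γδ regions up to the 25th percentile of the SOX13lo list, 32.9% (31.8 to 34.0) up to the 50th and 41.3% (39.7 to 42.9) up to the 75th. It was 35.3% (30.4 to 40.4) up to the 90th and 13.3% above it, where 4 of 30 regions were in DP. In SOX13hi the same 3 lower bands gave 21.5%, 26.1% and 25.1% (22.4 to 28.02). Transgenic SOX13hi gave 22.6%, 32.0% and 35.9% (34.0 to 37.9), and transgenic SOX13lo 19.3%, 23.2% and 22.7% (18.7 to 27.0). The libraries were thus within 4 percentage points of each other in the lowest band. Between the 25th and the 75th percentile they were apart, and SOX13lo and transgenic SOX13hi lay above the other libraries in each band. The fall above the 75th percentile was not particular to SOX13lo. Up to the 90th the share was 32.5% in transgenic SOX13hi, 19.4% in SOX13hi and 8.93% in transgenic SOX13lo. Above it the shares were 17.6% (of 17 regions), 5.88% (of 17) and 0% (of 10). Equal percentiles of lists of different length need not mean equal depth.

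Seen from DP, members were most frequent among DP regions of middle score. They made up 3.38% of DP regions in the lowest score band (up to the 25th percentile), 6.13% in the next, 10.3% (9.91 to 10.6) between the 50th and the 75th percentile and 6.30% up to the 90th. Above the 90th percentile they fell to 0.730% (0.579 to 0.908), or 80 of 10959 regions, and 79.0% of these strong DP regions were held by all 5 libraries. The ratio of members to regions held by SOX13hi and DP alone was 2.93, 3.14, 2.99 and 2.93 in the 4 lower bands. In the highest band it was 1.6 (80 against 50). There, regions that DP shared with transgenic SOX13hi alone were the more numerous, at 112 (1.02%, 0.842 to 1.23).

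**Figure D2:**
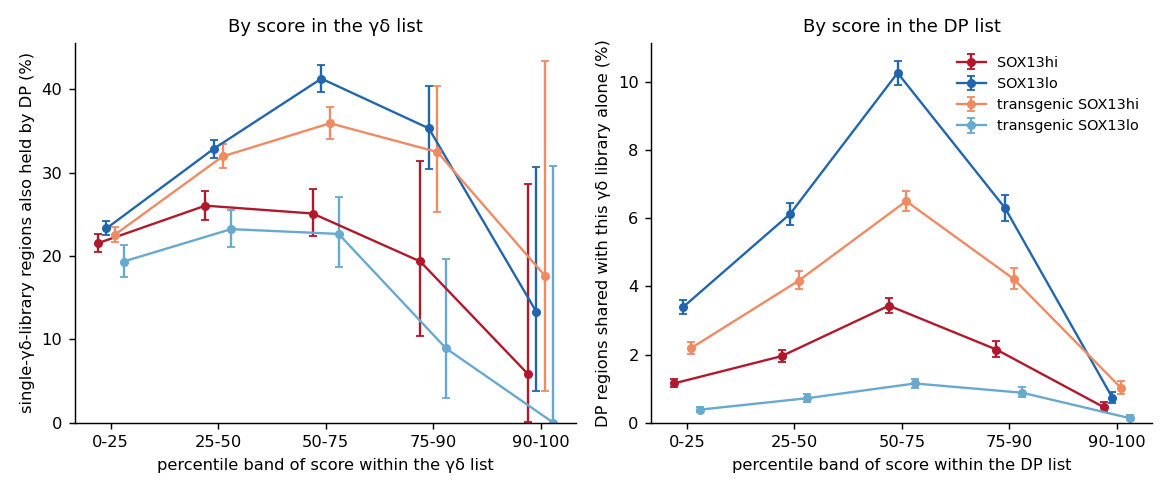
Left: percentage of single-γδ-library regions also held by DP, by the percentile band of the region's score in the γδ list. Right: percentage of DP regions shared with 1 γδ library alone, by the percentile band of the DP score. Bars are exact Clopper-Pearson 95% intervals. SOX13lo is highest between the 50th and the 75th percentile in both panels, at 41.3% and 10.3%.

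Members were short, though wider at the median than DP regions in general, and their peaks often met by few bases. The median width of a member was 111 bp (quartiles 75 and 165, range 28 to 938). It was 141 bp over all autosomal SOX13lo regions, 90 bp over all DP regions, 28 bp in SOX13lo alone and 29 bp in DP alone. The widest SOX13lo peak of a member had a median width of 29 bp, against 64 bp over all SOX13lo regions. The widest DP peak had one of 88 bp, against 53 bp over all DP regions. Peaks of 28 to 30 bp made up 51.6% of members in SOX13lo, against 41.9% of all SOX13lo regions. In DP they made up 30.9% of members, against 42.1% of all DP regions, and 14.8% of members had such a peak in both. Of the members, 95.2% held 1 peak of each list. In 37.7% a SOX13lo peak lay wholly inside a DP peak.

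The overlap that the rule asks for was at its edge in part of the members. The largest overlap of a SOX13lo with a DP peak was 28 bp in the median member (20 and 36 as quartiles). It was at most 5 bp in 344 members (5.41%) and a single base in 69. Just outside the rule, 336 of the regions that SOX13lo alone held had a region held by DP alone no more than 5 bp away, and 3777 (25.2%) had one within 200 bp.

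Absence from the other γδ libraries was often absence by a short distance. The nearest SOX13hi peak lay a median of 546 bp from a member, the nearest transgenic SOX13hi peak 439.5 bp and the nearest transgenic SOX13lo peak 1641 bp. Within 200 bp of a member there was a SOX13hi peak for 28.3%, a transgenic SOX13hi peak for 31.9% and a transgenic SOX13lo peak for 14.9%. A peak of at least 1 of these 3 libraries lay within 200 bp of 43.4% of members and within 1000 bp of 67.8%. For regions that SOX13hi and DP alone held, a peak of the 3 γδ libraries that lacked them lay within 200 bp of 54.5% and within 1000 bp of 73.0%, and for those of transgenic SOX13hi and DP alone these shares were 43.2% and 61.4%.

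Members lay near strong common sites more often than regions of DP alone did. A region held by all 5 libraries was within 1000 bp of 39.6% of members, 39.3% of the regions of SOX13hi and DP alone, 31.7% of those of transgenic SOX13hi and DP alone, 34.3% of those of SOX13lo alone and 28.1% of those of DP alone. At the other end, 2047 members (32.2%) had no peak of another γδ library within 1000 bp, and 822 (12.9%) had none within 10000 bp. The 822 had a median percentile rank of 34.6 in SOX13lo and 60.7 in DP, against 34.6 and 57.8 for all members. When absence required 1000 bp free of other γδ peaks, the share held by DP was 32.1% in SOX13lo, 31.5% in SOX13hi, 29.6% in transgenic SOX13lo and 33.4% in transgenic SOX13hi, so the difference from SOX13hi nearly closed and that from transgenic SOX13hi turned.

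**Figure D3:**
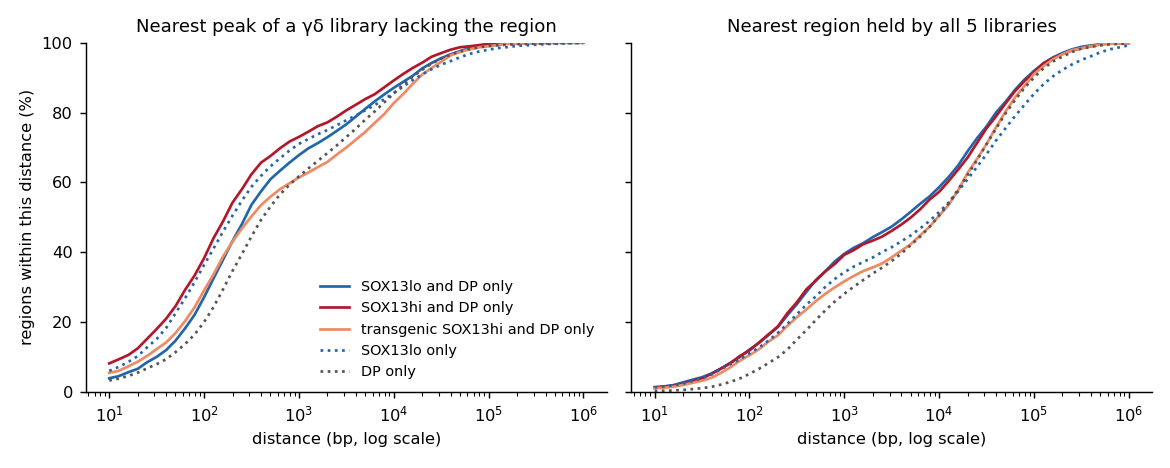
Cumulative percentage of regions whose nearest peak of a γδ library lacking them (left) or nearest region held by all 5 libraries (right) lies within the distance on the horizontal log axis. For the class of DP only, the left panel counts 4 γδ libraries in place of 3. Members, in solid blue, reach 43.4% at 200 bp on the left and 39.6% at 1000 bp on the right.

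The 10 members with the highest rank in both lists, taking the lower of the 2 percentiles, ran from 92.2 down to 79.5. The first was on chromosome 14 at 76168973 to 76169424. There SOX13lo had a 452 bp peak scored 107, and DP had 2 peaks, the higher scored 124. The nearest peak of another γδ library was 14485 bp away. On chromosome 2 at 7191726 to 7191983, SOX13lo had a 258 bp peak scored 51 and DP a 55 bp peak scored 49. The other γδ libraries had no peak within 397786 bp of it. A member on chromosome 8 at 130486857 to 130487056, with scores of 43 in SOX13lo and 82 in DP, was 213345 bp from the nearest of their peaks.

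Other members of this group had a peak of another γδ library close by. The member on chromosome 9 at 66822702 to 66822853 (scores 60 and 58) lay 8 bp from a transgenic SOX13hi peak, and the one on chromosome 3 at 9500036 to 9500082 (47 and 60) lay 5 bp from a transgenic SOX13hi and 13 bp from a SOX13hi peak. On chromosome 8, 88 bp separated the member at 130883010 to 130883787 (43 and 165) from a transgenic SOX13lo peak, and 55 bp the one at 89148397 to 89148659 (43 and 45) from a SOX13hi peak. The member on chromosome 6 at 127531988 to 127532255 (46 and 46) was 159 bp from a SOX13hi peak. In all, 5 of the 10 had a peak of another γδ library within 200 bp. The remaining 2, like the first 3, had no such peak within 1000 bp. They were on chromosome 10 at 116351122 to 116351155 (122 and 43), 16541 bp from the nearest, and on chromosome 16 at 30187955 to 30188286 (57 and 39), 6576 bp from it. High scores also fell on very short peaks. The chromosome 10 member had a 29 bp peak in both lists, and the chromosome 3 member peaks of 29 bp in SOX13lo and 28 bp in DP. The SOX13lo peak of the chromosome 9 member was 29 bp wide, and the DP peak of the chromosome 6 member 28 bp.

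Members were spread over all 19 autosomes, from 181 on chromosome 19 to 505 on chromosome 2. They were between 9.85% (chromosome 3) and 13.7% (chromosome 15) of the SOX13lo regions of a chromosome, and between 5.14% (chromosome 11) and 6.66% (chromosome 18) of its DP regions. Members outnumbered the regions of SOX13hi and DP alone by 2.42 times on chromosome 10 to 3.69 times on chromosome 15. The excess was thus present on each autosome in the lists as deposited, of which the SOX13lo list is the longer. Chromosome 15 also had the highest share of single-γδ SOX13lo regions held by DP, 36.5%, against a median of 29.5% over the autosomes. Chromosome X, which the rule leaves out, held 177 regions of SOX13lo and DP alone and 79 of SOX13hi and DP alone. It held 105 of transgenic SOX13hi and DP alone and 21 of transgenic SOX13lo and DP alone. On chromosome Y, also left out, the order differed. There the numbers were 1 for SOX13lo, 2 for SOX13hi, 35 for transgenic SOX13hi and 12 for transgenic SOX13lo. The cause was not tested.

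In windows of 100 kb, most members stood alone or in small groups. Of the 13215 autosomal windows with a region, 4104 held a member, and 189 (1.43%) held at least 4, with 873 members (13.7%) between them. The regions of SOX13hi and DP alone, a class of smaller size, reached 4 in 2 windows, and those of transgenic SOX13hi and DP alone in 47. Windows with at least 4 members were rich in DP regions of all kinds: they held a mean of 17.4 regions of DP alone, against 4.68 over all windows, and 3.57 regions of all 5 libraries, against 1.10.

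The other regions of these windows, which are not members, were also counted. The windows were chosen by SOX13lo peaks that the other γδ lists lack, and members often lay close to other peaks. These counts are therefore not independent of that choice. Members were left out of SOX13lo, and the regions of SOX13hi and DP alone were left out of SOX13hi. The 189 windows then held 2330 SOX13lo and 1673 SOX13hi regions, a ratio of 1.39 (1.31 to 1.48). A region held by both libraries counts on both sides, while the intervals of these ratios treat the counts as independent, so they are a rough guide only. Over all windows the ratio was 1.25, and in windows with no member 1.22. The 189 windows held a mean of 16.9 SOX13lo regions, members included, against 4.33 over all windows, where ties were more frequent. SOX13lo was higher in 148 of the 189 windows (78.3%) and lower in 19. Over all windows it was higher in 6257 (47.3%), lower in 2553 and level in the rest. In windows rich in the corresponding class of another library it was higher in 70.4% (19 of 27 windows with at least 3 regions of SOX13hi and DP alone) and 72.3% (34 of 47 with at least 4 of transgenic SOX13hi and DP alone). The ratio was 1.34 (1.15 to 1.58) in those 27 windows and 1.27 (1.10 to 1.46) in those 47. Both intervals hold 1.25 and 1.39, so the higher ratio was not shown to be particular to windows rich in members. Against transgenic SOX13hi, with its own class left out in the same way, the ratio was 1.28 (1.20 to 1.36) in the 189 windows and 1.07 over all windows. It was 1.16 (0.993 to 1.35) in the 27 windows and 1.02 (0.894 to 1.16) in the 47.

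The window with the most members lay on chromosome 3 at 130800001 to 130900000, with 10 (exact Poisson 95% interval 4.80 to 18.4). It held 45 DP and 25 SOX13lo regions, against 12 in transgenic SOX13hi and 5 each in SOX13hi and transgenic SOX13lo. Without the members, SOX13lo still had 15 regions to the 5 of SOX13hi. Its members had scores of 8 to 31 in SOX13lo and 6 to 44 in DP, and none was above the 75th percentile in both lists. They stood in 2 places. The first 8 lay between 130809215 and 130814781, and of these the last 4, within 1201 bp from 130813581, had no region of another γδ library between them. They ended 105 bp before a transgenic SOX13lo peak and 181 bp before a SOX13hi peak. The other 2 members began at 130856933 and 130863253. The first of these had the highest SOX13lo score of the group, 31, and a DP score of 10, and its nearest SOX13hi peak was 5422 bp away.

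**Figure D4:**
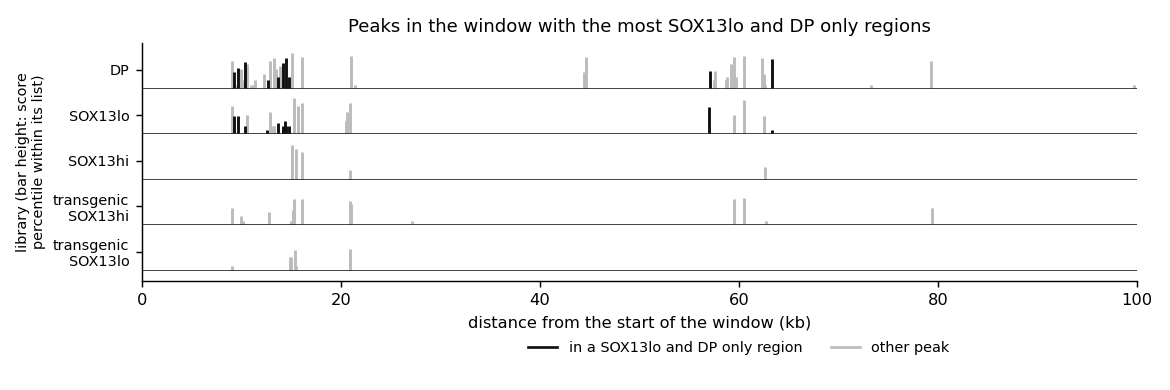
Peaks of the 5 libraries in the chromosome 3 window, by distance from its start in kb. Bar height is the percentile of the peak's score within its own list, so heights are not comparable between rows. Peaks of the 10 members are black and all others grey. The members fall in 2 groups, 8 in the first 20 kb and 2 near 60 kb.

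Windows on chromosomes 1 and 10 followed, with 9 members each. The chromosome 1 window at 167700001 was dense in every library, with 92 DP, 38 SOX13lo, 25 SOX13hi, 25 transgenic SOX13hi and 17 transgenic SOX13lo regions. The chromosome 10 window at 126700001 held 40 DP, 27 SOX13lo, 17 transgenic SOX13hi, and 12 regions each in SOX13hi and transgenic SOX13lo. In these windows members were 9.78% and 22.5% of the DP regions.

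Of the 4 windows with 8 members, the one on chromosome 14 at 62300001 had the highest share. There, 8 of 18 DP regions (44.4%) and 8 of 12 SOX13lo regions were members, and SOX13hi had 4 regions, transgenic SOX13hi 3 and transgenic SOX13lo 1. Without its members SOX13lo had 4 regions, as many as SOX13hi. The window on chromosome 15 at 12100001 was alike, with 12 SOX13lo regions, 4 in each other γδ library and 28 in DP, so that SOX13lo without its members again had 4. On chromosome 2 the windows at 169900001 and 170100001 were separated by a single window with 6 members. These 3 successive windows (300 kb) held 22 members, the most of any 3 successive windows, and was singled out after its values were seen. It had 117 DP regions and 54 SOX13lo regions, or 32 without the members that chose the stretch, against 29 in transgenic SOX13hi, 26 in SOX13hi and 6 in transgenic SOX13lo, and only 3 regions of all 5 libraries.

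The last 3 windows held 7 members each. The window on chromosome 4 at 151500001 had 36 DP and 32 SOX13lo regions, and 15 of the latter were in SOX13lo alone. The window on chromosome 6 at 128700001 had 65 DP, 39 SOX13lo, 30 SOX13hi, 28 transgenic SOX13hi and 20 transgenic SOX13lo regions. The window on chromosome 8 at 126800001 had 28 DP and 10 SOX13lo regions and 2 in each other γδ library. Over the 10 windows SOX13lo had 228 regions, or 147 without the members, against 122 in transgenic SOX13hi, 112 in SOX13hi and 73 in transgenic SOX13lo. Without the members, SOX13lo was above SOX13hi in 8 of the 10 windows and above transgenic SOX13hi in 7. Over all windows, with each library's own class left out, SOX13lo had 1.25 times the regions of SOX13hi and 1.07 times those of transgenic SOX13hi. The counts of the 10 windows keep those classes in the other libraries, so the measures are not alike. With lists of equal length, 18 regions of these windows had the pattern, of which 11 met a member. Without those 18, SOX13lo had 90 regions, against 63 in transgenic SOX13hi, 67 in SOX13hi and 73 in transgenic SOX13lo, and it was above SOX13hi in 8 windows. The 90 can still hold SOX13lo peaks of members whose DP peak was cut, as happened to 15.7% of all members. They are therefore not free of the peaks that chose the windows.

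**Figure D5:**
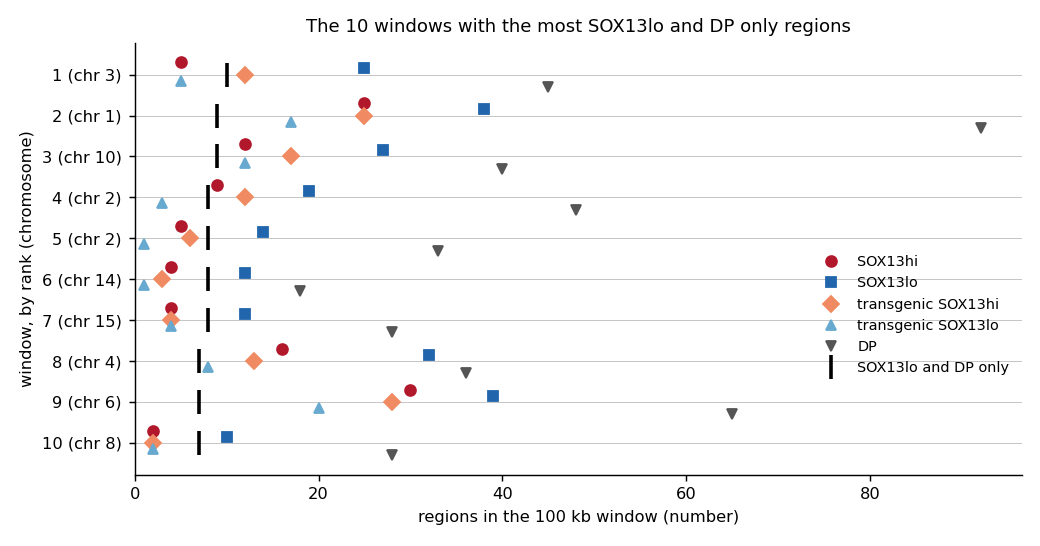
Regions of each library in the 10 windows of 100 kb with the most members, ranked from the top, with the members as black strokes. Symbols are offset vertically within a row for legibility. DP is the highest and SOX13lo the next in each window, and the members were used to choose the windows.

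Runs of members with no region of another γδ library between them and gaps of at most 5 kb were few. Of the members, 86.4% stood alone by this measure, and 864 formed 409 runs of at least 2. The longest runs held 4 members, and there were 6 of them. After the chromosome 3 run, the named ones were all on chromosome 6. They lay at 34938251 to 34944946, 127190291 to 127191094, 128786201 to 128787147 and 136412366 to 136416124. The run at 127190291 packed 4 members into 804 bp, with SOX13lo scores of 12 to 28 and DP scores of 5 to 16, and the nearest peak of another γδ library was 311 bp away. The run at 128786201 lay inside the chromosome 6 window above, 285 bp from such a peak.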

How the data were processed

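ATAC-seq peak lists of 5 libraries, 1 per group, were used as the authors deposited them. The build is mm9, as the submitters' processing notes name it, and positions are counted from 1. How reads were aligned, filtered and turned into peaks is not given in the sources used here, and the read depth is unknown. The deposited score of a peak is a whole number of unstated meaning. It was used to rank peaks within a list, with ties at their mid-rank, and a region's score in a library is that of its highest peak. Peaks were merged at an overlap of at least 1 bp. Windows are of 100 kb, by region centre.

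The members, windows and classes were chosen with earlier results of these data known. Named are the 10 members with the highest lower-of-2 percentile, the 10 windows with most members and the 5 longest runs, ties in genome order. Alternatives were the upper 50% of each list, lists of equal length (33155 peaks), joining within 150 bp, centres within 200 bp, a reciprocal overlap of 50%, absence within 1000 bp and peaks of at least 50 bp. Joining touching peaks, and shortening the γδ lists alone, were added after seeing the data. Planned analyses of sequence and of genes were not run, for want of an mm9 genome and annotation. The code was tested on simulated lists with known patterns. Intervals (exact Clopper-Pearson or Poisson, 95%) cover counting error only. Software was Python 3.11.15 with scipy 1.17.1, pandas 2.3.3, numpy 2.4.6 and, for plots, matplotlib 3.10.9.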

Additional observations from a re-analysis of the deposited data

How the results depend on the processing

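The number of regions held by SOX13lo and DP alone moved with each rule that shortens the lists or tightens the overlap. It was 3589 with the upper 50% of each list, 1480 with lists of equal length, 3284 with the γδ lists alone made equal, 1663 with a reciprocal overlap of 50%, 2047 with 1000 bp free of other γδ peaks and 3985 with peaks of at least 50 bp. It was 4250 with joining within 150 bp, 7612 with centres within 200 bp and 6389 with touching peaks joined. The share of single-γδ SOX13lo regions held by DP was, in the same order, 43.1%, 22.9%, 51.6%, 6.66%, 32.1%, 34.8%, 46.6%, 54.7% and 30.2%. It exceeded that of SOX13hi by 0.532 to 11.3 percentage points and that of transgenic SOX13lo by 2.31 to 18.4 under these 9 alternatives. Against transgenic SOX13hi it was higher under 8, by up to 4.86 points, and lower with 1000 bp free of other γδ peaks (-1.32 points). The cause of that turn was not tested. The 81 members of the 10 named windows became 16 to 93. No paired analysis was possible because each group has 1 library. Unknown depth limits every statement of absence.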
